A study of Drosophila melanogaster with 102 samples.

Results

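The 10 Niemann-Pick type C genes of Drosophila melanogaster, Npc1a, Npc1b and Npc2a to Npc2h, were taken by symbol from 14312 genes with deposited counts. All 10 had a row in the table of mothers and in that of progeny. The members themselves were chosen by symbol, while the family was selected on results of these same counts, and which levels or fold changes drew attention to it is not recorded. The adjusted p-values below, computed over all genes tested, therefore place the genes among the others and are no independent support for the choice.

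Niemann-Pick type C proteins carry sterols out of the lumen of endosomes and lysosomes. A soluble NPC2 protein binds the sterol and hands it to NPC1, a protein of the membrane. Insects cannot make sterols and take them from food, so the same machinery serves absorption in the gut and the supply of sterol for ecdysteroid hormones. In flies Npc1a is the broadly used membrane protein, needed for ecdysteroid synthesis in larvae, while Npc1b acts in the midgut, where it is required for the uptake of dietary sterol. Npc2a is the closest relative of mammalian NPC2 and shares its role in sterol balance with Npc2b. Npc2a, Npc2e and Npc2h proteins have been reported to bind cell wall components of bacteria, and Npc2a and Npc2e to act on the Imd pathway of immune signalling.

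Flies were of the white-eyed laboratory strain labelled W1118, and whole flies were used. Mothers ate a high fat diet (HFD), a high sugar diet (HSD) or a control diet (CD) for 7 days and were mated with males kept on CD. Sons and daughters lived on CD at 25 °C and were sampled at days 0, 10 and 50, so HFD, HSD and CD in progeny name the mother's diet only. Each of the 21 groups held 5 libraries, except that day 50 sons had 3 under HFD and 6 under HSD, day 50 daughters 4 under HSD, and day 0 daughters 4 under CD. The sources used here do not give the number of flies in a library, and nothing says that libraries came from separate crosses, so p-values measure the spread between these libraries. In whole flies, fewer cells of a type and less RNA per cell cannot be told apart.

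The 102 libraries held 6332907 to 19469296 counts. Some went against their labels by tissue markers. Library m8, labelled a day 0 son under HFD, had ovary transcripts and almost no testis transcripts, f12, labelled a day 0 daughter under HSD, had testis and accessory gland transcripts, and m27, labelled a day 10 son under HSD, had a summed testis level of 131 CPM (counts scaled to the library's total) where the others of its group had 2699 to 3962 CPM. For its day, m45, labelled a day 50 son under HSD, had a summed flight muscle level of 45162 CPM, within the range of day 0 sons, against 3729 to 4585 CPM in the others of its group. Earlier results of these data had placed 9 libraries against their day (f13, f15, f19, f21, f22, f26, f27, f28 and m45), and results that rest on them are given with and without them. As the 9 were picked on these same data, refits without them are no independent support. Library m27 is not among the 9 and stays in those refits.

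Npc1a lay on chromosome arm 2L at 10213812 to 10221216 (minus strand, build BDGP6.54) and Npc1b on X at 20934869 to 20939503 (plus strand). Npc2a lay on 2L at 1988290 to 1988940 and the other Npc2 genes on 3R. Npc2e (10053332 to 10054348, plus), Npc2d (10055356 to 10056083, minus) and Npc2c (10060252 to 10061136, plus) were next to each other with no protein-coding gene between them, 1007 and 4168 bases apart. Npc2g (30744605 to 30745263) and Npc2h (30745479 to 30746290) were 215 bases apart on the minus strand. Npc2b stood alone at 14089517 to 14092425 and Npc2f at 24137895 to 24140936, both on the plus strand. Both Npc1 genes code for long proteins (1287 codons for Npc1a and 1254 for Npc1b), whereas the coding sequences of the Npc2 genes held 148 to 173 codons. The exons of Npc2e shared 611 of 661 bases with the antisense gene asRNA:CR44192, and those of Npc2c 414 of 708 with asRNA:CR45205. The sources used here do not state strandedness, so reads of Npc2e and Npc2c cannot be told apart from those of their antisense partners, which were not analysed here.

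Per kilobase of longest transcript, and averaged over the 87 progeny libraries, Npc2g had the highest level of the family at 157 CPM per kb. Npc2a followed with 128, Npc2b with 104 and Npc2h with 85.9 CPM per kb. Npc1a stood at 19 CPM per kb and Npc1b at 4.96 CPM per kb, with Npc2e at 35.4, Npc2f at 14.6, Npc2d at 13 and Npc2c at 0.455 CPM per kb. Leaving aside Npc2c, with group means of 0 to 0.916 CPM, the spread over the 21 groups, in CPM per gene, was widest in 3 members. Npc2b came next, with a 9.10-fold range. Group means of Npc2e, in CPM, spanned a 259-fold range (0.566 to 146 CPM), those of Npc1b a 52.4-fold range (1.64 to 85.9 CPM) and those of Npc2d a 16.6-fold range (1.46 to 24.1 CPM). Npc1a and Npc2a varied least, with group means of 51.0 to 123 CPM and 55.8 to 137 CPM. For every member, each group overlapped the next in the order of means. Npc2c reached at most 1.59 CPM, had a count in 62 of 102 libraries and passed the filter on low counts in few comparisons.

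**Figure D1:**
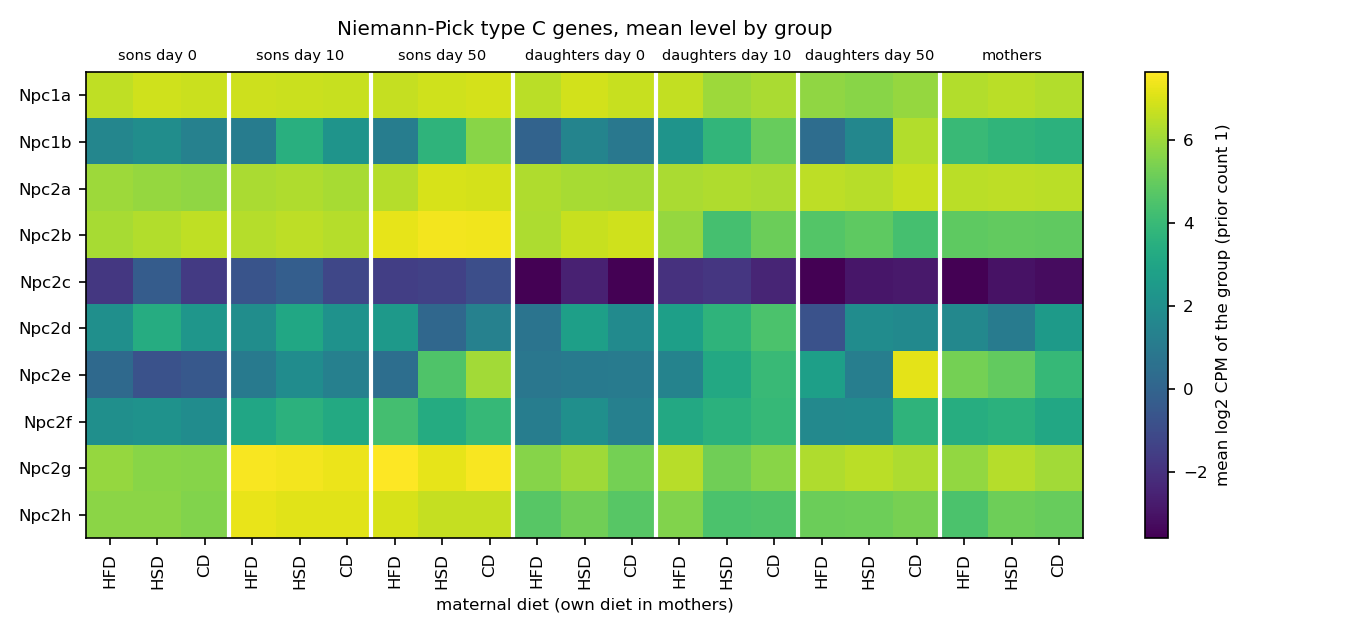
Mean log2 CPM (prior count 1) of the 10 genes in the 21 groups, with sons, daughters and mothers in blocks and the mother's diet along the horizontal axis. Npc1b and Npc2e are brightest in day 50 CD daughters, Npc2g and Npc2h in sons of day 10 and day 50, and Npc2c is dark throughout.

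The mother's diet was compared in 7 strata (mothers, and each sex at each day), with each tested diet set against CD, and HSD against HFD. Of 189 tests of a member, 9 passed edgeR's quasi-likelihood test at an adjusted p of 0.05, and in all 9 the member was lower. Over the same 21 comparisons 4793 of 8465 calls of any gene were lower. The 9 calls of members lay in 3 of the 21 comparisons, all in daughters. These were HFD and HSD against CD at day 50, where 6.24% and 9.48% of all genes tested were called. The third was HSD against HFD at day 10, where 66.3% were.

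At day 50, Npc1b and Npc2e were far lower in daughters of HFD and of HSD mothers than in daughters of CD mothers. Npc1b, the gut sterol transporter, had 4.28, 0.490, 1.15, 0.849 and 1.42 CPM under HFD and 1.04, 0.984, 3.24 and 22.6 CPM under HSD, against 110, 79.4, 70.5, 119 and 51.1 CPM under CD. No HFD or HSD library reached the lowest CD library, and 1 HSD library, f44, stood well above its group. The log2 fold change of Npc1b was -5.80 ± 0.86 for HFD against CD (adjusted p 0.00165) and -3.66 ± 0.81 for HSD against CD (adjusted p 0.0150) by edgeR's quasi-likelihood test. Here and below the value after ± on a log2 fold change is its standard error. The HSD call of Npc1b was lost without library f43 (adjusted p 0.0554) and in a single fit over all progeny groups (adjusted p 0.185).

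Npc2e, a soluble member of the NPC2 family, was lower in the same groups. Its levels were 13.5, 4.41, 7.19, 2.78 and 11.1 CPM under HFD and 4.07, 1.15, 1.55 and 3.56 CPM under HSD, against 169, 141, 142, 170 and 110 CPM under CD. The lowest CD daughter was thus above every HFD and HSD daughter, and the library f44, high for Npc1b, was not high for Npc2e. The log2 fold change of Npc2e was -4.27 ± 0.41 under HFD (adjusted p 1.37e-04) and -5.89 ± 0.50 under HSD (adjusted p 5.63e-05), both against CD, and both calls held under every alternative tried.

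Npc2a, the broadly expressed NPC2 protein, was slightly lower under HSD, with 82.5, 92.8, 88.1 and 88.8 CPM against 105, 113, 98.9, 103 and 102 CPM under CD. Its log2 fold change was -0.28 ± 0.07 (adjusted p 0.0267). That call was lost when any 1 of 8 libraries was left out (f31, f32, f34, f36, f38, f39, f41 or f43, adjusted p 0.0602 to 0.114) and in the fit over all progeny groups (adjusted p 0.807). Under HFD, Npc2a had a log2 fold change of -0.21 and an adjusted p of 0.0858.

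Npc2f missed the threshold under both diets. It had 9.64, 3.01, 2.40, 3.55 and 1.21 CPM under HFD and 2.17, 2.79, 2.18 and 9.67 CPM under HSD, against 13.8, 11.4, 16.3, 13.1 and 11.3 CPM under CD. The groups did not overlap, and the log2 fold changes of Npc2f were -1.76 ± 0.53 (adjusted p 0.0710) and -1.67 ± 0.57 (adjusted p 0.0796). The remaining members, Npc1a, Npc2b, Npc2d, Npc2g and Npc2h, had adjusted p from 0.262 to 0.943 in both comparisons.

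In these 2 comparisons 2 of 9 members tested were called for HFD, where 6.24% of all genes tested were called, and 3 of 9 for HSD, where 9.48% were. Of all genes called, 563 of 632 were lower under HFD and 665 of 961 under HSD. The groups did not overlap for 3 of 9 members under HFD and for 4 of 9 under HSD, against 7.72% and 14% of all genes tested. The median log2 fold change was -0.24 over the 9 members under HFD and -0.25 under HSD, against 0.02 and -0.00 over all genes tested. HSD and HFD daughters of day 50 were not separated: 0 members and 0% of genes were called for HSD against HFD. At an unadjusted p under 0.05 that comparison had 2 members, Npc2e and Npc1b, and 1566 genes (15.5%). DESeq2 called 1 member and 334 genes (3.28%).

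**Figure D2:**
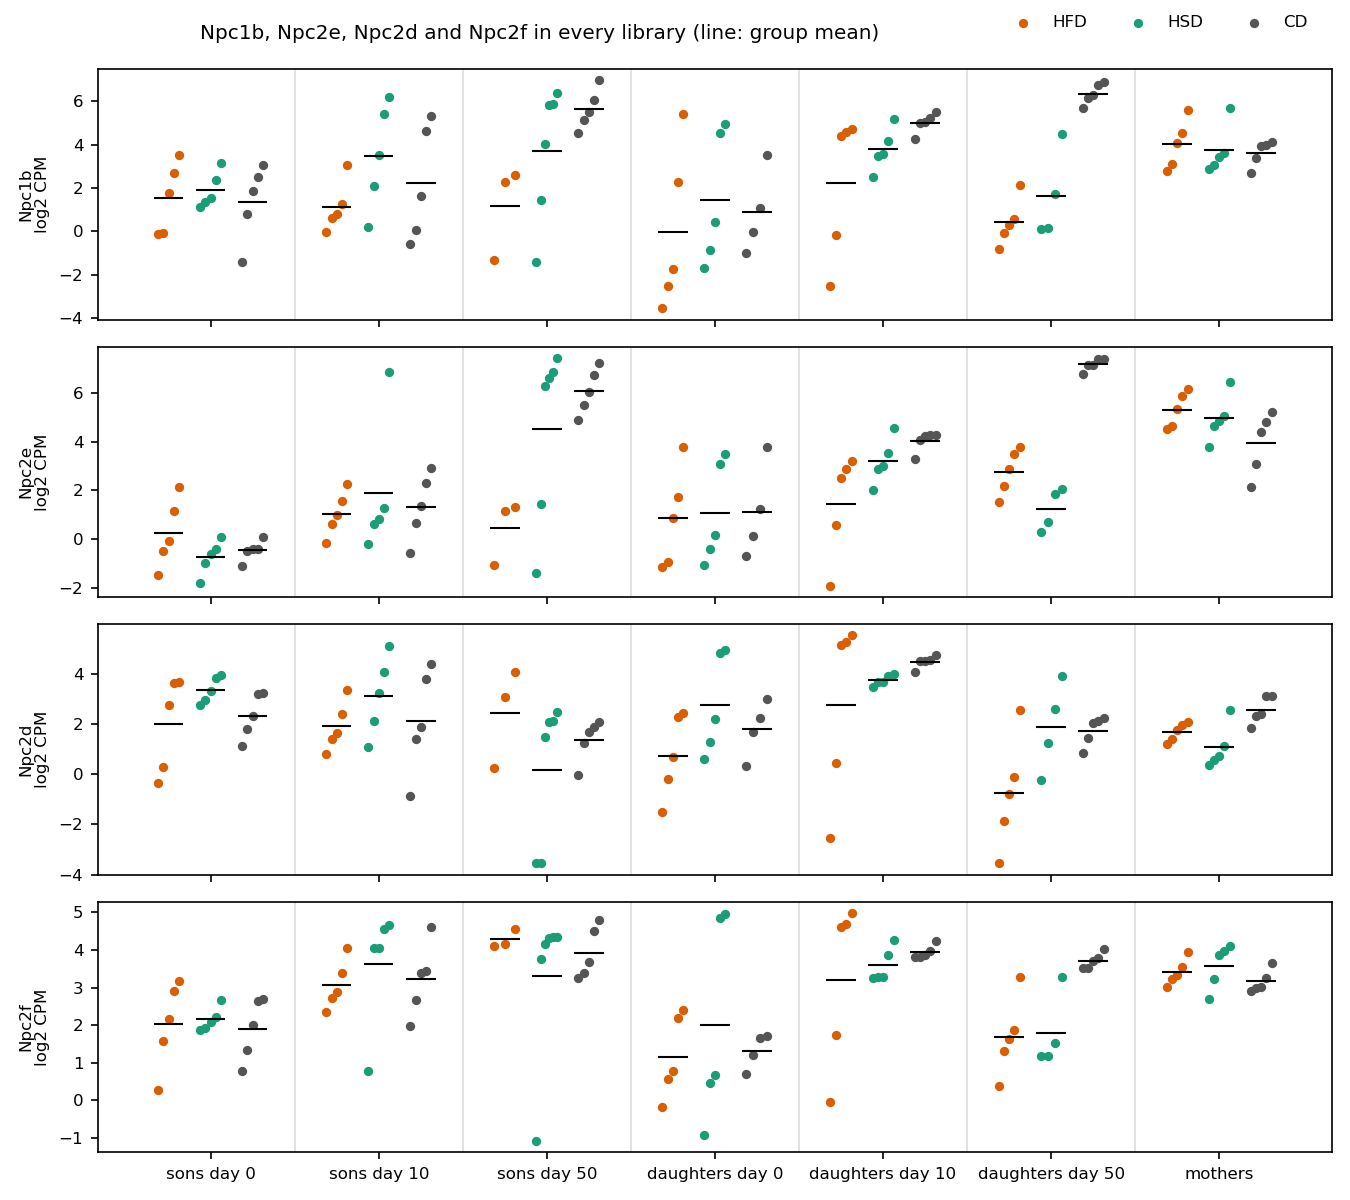
Level of Npc1b, Npc2e, Npc2d and Npc2f in every library as log2 CPM (prior count 1), by sex, day and mother's diet, with the line at the group mean. The day 50 CD daughters stand above all HFD and HSD daughters of that day for Npc1b and Npc2e, and within many groups single libraries lie far from the rest.

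Part of the midgut markers was lower in these comparisons, as was part of other lists given here and below. The summed level of 13 midgut genes (digestive proteases, Mal-A1, Amy-p and the regulator GATAe) was 159 to 3648 CPM in HFD daughters, 696 to 2807 CPM in HSD daughters and 3350 to 6002 CPM in CD daughters of day 50. HFD and CD daughters overlapped in this sum, with f36 (HFD) at 3648 CPM and f35 (CD) at 3350 CPM, although they did not for Npc1b and Npc2e. Of the 13, 4 fell and none rose under HFD, with a median log2 fold change of -1.88, and 3 fell and none rose under HSD, with a median of -1.67. The proteases Jon66Cii and Jon66Ci and the maltase Mal-A1 passed in both (Jon66Cii -5.87 and -5.25, Mal-A1 -4.74 and -2.92, Jon66Ci -3.86 and -2.67). Their part in the result for Npc1b and Npc2e was not tested. Of the 7 ovary and 7 muscle genes tested none was called in either comparison, and of 3 yolk protein genes 1 fell, under HSD. Of 8 hemocyte genes 1 rose under HFD and 4 rose under HSD, and of 7 adult fat body genes tested 3 fell under each diet.

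**Figure D3:**
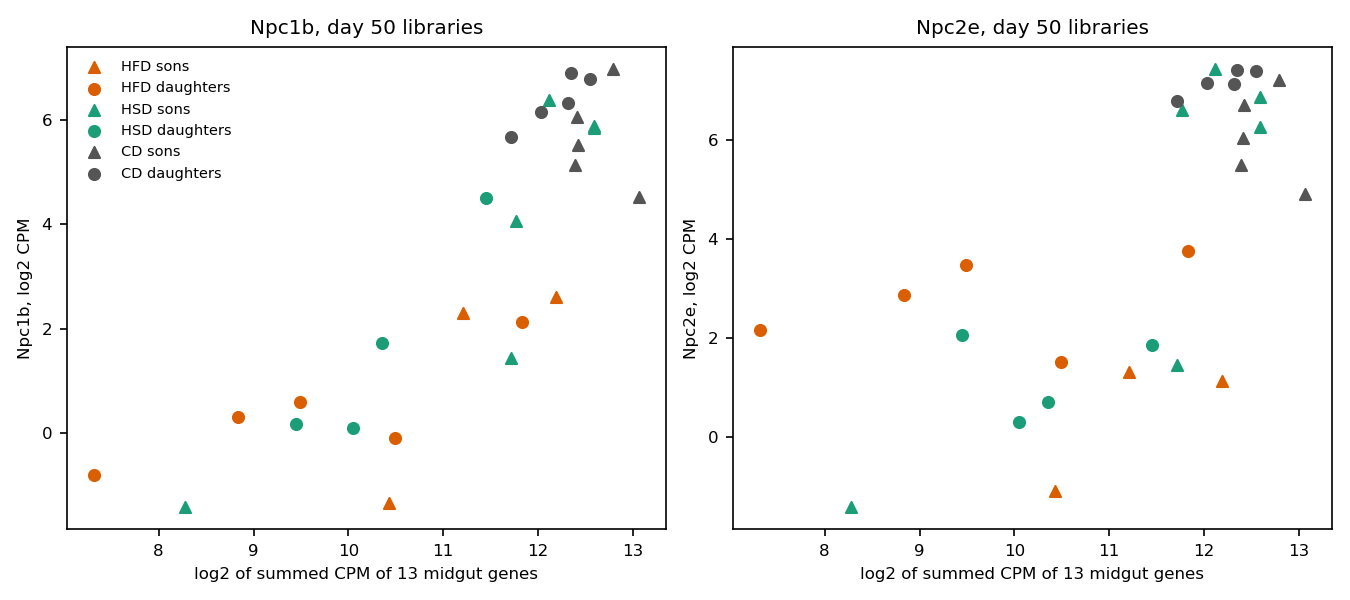
Log2 CPM of Npc1b (left) and Npc2e (right) in each day 50 library against the log2 summed CPM of 13 midgut genes, coloured by the mother's diet, with triangles for sons and circles for daughters. Midgut sums run from 159 to 3648 CPM in HFD daughters and from 3350 to 6002 CPM in CD daughters, and the CD daughters lie highest for both genes among daughters.

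Other genes of sterol handling were counted beside the family. Of 16 genes of sterol and lipoprotein handling, 2 fell and none rose under HFD: Snmp1, a CD36-type receptor (-1.16 ± 0.22, adjusted p 0.00618), and Mtp, which loads lipid onto lipoproteins (-0.28 ± 0.07, adjusted p 0.0262). Under HSD 3 fell and none rose, namely Mtp (-0.42, adjusted p 0.00534), the lipophorin receptor gene LpR2 (-0.27, adjusted p 0.00898) and Snmp1 (-0.79, adjusted p 0.0482). The median log2 fold change of that list was -0.07 under HFD and -0.05 under HSD. Of 15 lysosome genes 3 fell under HFD and 7 under HSD, none rose, and Gba1a, a glucocerebrosidase gene, had the smallest adjusted p in both (-5.28 ± 0.54 with adjusted p 2.03e-04, and -4.92 ± 0.58 with adjusted p 5.50e-04).

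Genes of the Imd pathway, on which some NPC2 proteins have been reported to act, fell in part. Of 15 such genes 3 fell under HFD and 7 under HSD, and none rose. PGRP-LB, a peptidoglycan amidase that damps the pathway, changed by -1.21 ± 0.21 on the log2 scale under HFD (adjusted p 0.00381) and -1.64 ± 0.23 under HSD (adjusted p 0.00134). PGRP-SB1, another amidase, changed by -1.75 (adjusted p 0.0447) and -3.71 (adjusted p 0.00276), and the antibacterial peptide gene DptA by -5.50 ± 1.35 under HSD (adjusted p 0.0235). Of 7 ecdysteroid synthesis genes tested, spo and sad fell under HSD (-1.70 and -1.25, adjusted p 0.0468 and 0.0346) and none was called under HFD.

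In day 50 sons the means of Npc1b and Npc2e were lower under HFD but missed the threshold. Npc1b had 5.98, 0.309 and 4.84 CPM in HFD sons, against 23, 34.9, 45.7, 126 and 66.1 CPM in CD sons, with no overlap. Npc2e had 2.11, 0.387 and 2.39 CPM in HFD sons, against 29.8, 44.9, 105, 149 and 65.7 CPM in CD sons, again with no overlap. Their log2 fold changes were -3.90 ± 1.42 (adjusted p 0.102) for Npc1b and -5.50 ± 1.57 (adjusted p 0.0976) for Npc2e. No gene at all was called in this comparison (0%), and 3627 (28.7%) had an unadjusted p under 0.05. DESeq2 called 2403 genes (18.3%), Npc1b (adjusted p 0.0137) and Npc2e (adjusted p 5.52e-04) among them. The groups did not overlap for 4 of 9 members (Npc1a, Npc2a, Npc1b and Npc2e) and for 43.3% of all genes tested, so the members' share was near that of other genes. Midgut transcripts summed to 1374 to 4655 CPM in HFD sons and 5361 to 8552 CPM in CD sons, and testis transcripts to 1732 to 2052 CPM in HFD sons and 41.5 to 534 CPM in CD sons. Their part in the result was not tested.

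In HSD sons of day 50 both genes spread widely. Npc1b ranged from 0.290 over a median of 36.9 to 82.6 CPM and Npc2e from 0.290 over a median of 87.3 to 173 CPM, so that HSD sons overlapped CD sons. The low end was held by m45, which goes against its labelled day, and by m40, with 2.64 CPM of each gene. Their log2 fold changes for HSD against CD were -0.72 (Npc1b, adjusted p 0.716) and -0.06 (Npc2e, adjusted p 0.983). Without m45, the one library of day 50 placed against its day, HFD sons were lower than CD sons for Npc1b (-3.91 ± 1.11, adjusted p 0.0379) and Npc2e (-5.50 ± 1.15, adjusted p 0.0264), 2 of 9 members where 18.7% of genes were then called. Library m45 is an HSD son and in neither group of this comparison, so leaving it out changed only the fit that the 3 diets share. It was picked on results of these same data, so this refit is no independent support.

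**Figure D4:**
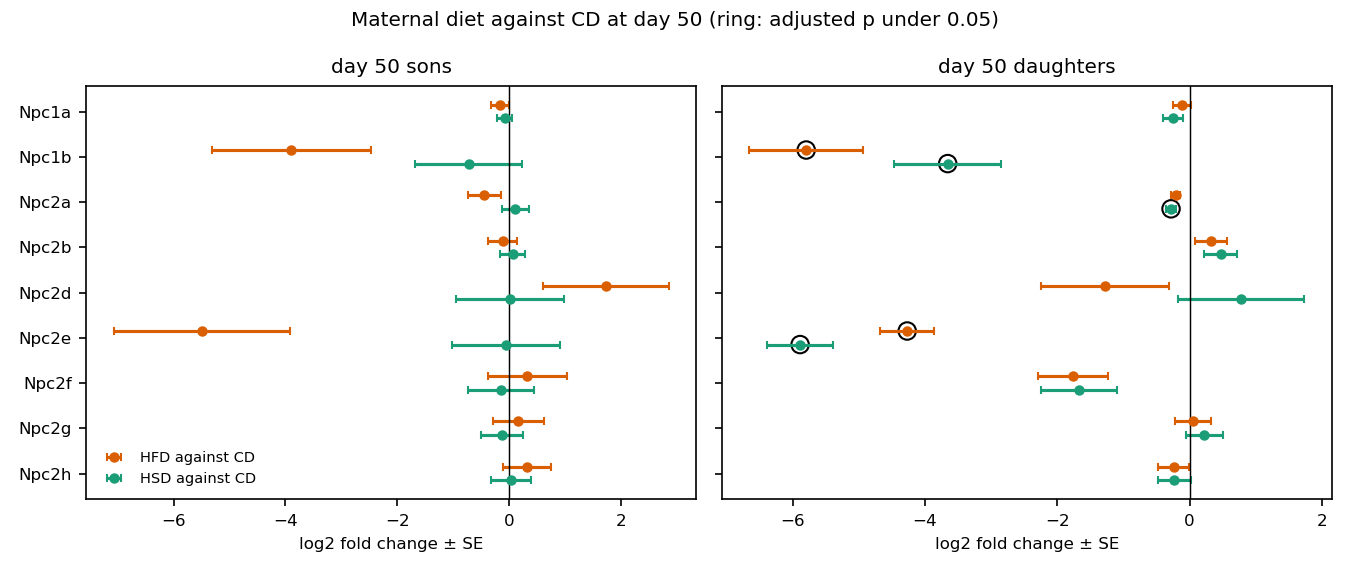
Log2 fold change ± SE of 9 members for HFD and HSD against CD in day 50 sons (left) and daughters (right), with a ring where the adjusted p was under 0.05. Npc1b and Npc2e lie far below 0 for both diets in daughters and for HFD in sons, with no ring in sons, and Npc1a and Npc2g lie near 0 throughout.

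Whether the diet difference depended on the sex was tested as male minus female effect. At day 50 the HSD effect on Npc2e differed by 5.82 ± 1.24 on the log2 scale (adjusted p 0.0531), just outside the threshold. It passed by DESeq2 (adjusted p 2.86e-04) and without the libraries placed against their day (6.09 ± 0.98, adjusted p 0.00279). The library left out there was m45, picked on results of these same data, so that refit is no independent support. The HFD effect on Npc2e differed by -1.22 ± 1.30 (adjusted p 0.698) and that on Npc1b by 1.87 ± 1.45 (adjusted p 0.546). Of 56 such tests of a member over the 3 days, 0 passed and 6 had an unadjusted p under 0.05 (12.5% of all tests of any gene had). DESeq2 called 2 members (2.46% of all tests of any gene). Among all genes 0.202% were called for HFD and 0.109% for HSD at day 50, 0.00779% for HFD and 0% for HSD at day 10, and 0% for both at day 0.

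Daughters of day 10 differed between HSD and HFD mothers for 4 of 9 members tested, all lower under HSD. This comparison called 66.3% of all genes tested, so the members' share was no higher than the background. Npc1a had 58.1, 52.2, 72.6, 81.3 and 56.1 CPM under HSD, against 82.2, 119, 100, 90.6 and 97 CPM under HFD (log2 fold change -0.78 ± 0.18, adjusted p 0.00362). Npc2b had 17, 11.8, 28.7, 33.5 and 18.1 CPM under HSD, against 64.3, 153, 37.8, 35.9 and 49.4 CPM under HFD (-1.80 ± 0.47, adjusted p 0.00619). For both genes every HSD library lay below every HFD library, and the groups did not overlap for 33.9% of all genes tested.

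Npc2g and Npc2h, the adjacent pair, also fell. Npc2g had 30.8, 27.1, 58.1, 47.6 and 31.7 CPM under HSD, against 37.6, 141, 91, 97.5 and 100 CPM under HFD (-1.43 ± 0.28, adjusted p 0.00249). Npc2h had 18.1, 17.2, 28.8, 26.6 and 22.2 CPM under HSD, against 20.9, 52.5, 48.9, 52.1 and 74.9 CPM under HFD (-1.31 ± 0.27, adjusted p 0.00276). Only the HFD library f21 overlapped the HSD libraries for these 2 genes.

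Of the libraries in the comparison, f21 and f22 under HFD and f26, f27 and f28 under HSD had been placed against their day. Flight muscle transcripts summed to 2671 to 12791 CPM under HSD and 12599 to 55212 CPM under HFD, and all 7 muscle genes fell, with a median log2 fold change of -2.66. Of 8 hemocyte genes 7 fell and 1 rose, and all 3 yolk protein genes fell. Their part in the result was not tested. The refit without libraries placed against their day, which also left out f19 under CD, kept only f29 and f30 under HSD. Under HFD it kept f23, f24 and f25. The libraries left out had been picked on results of these same data, so this refit is no independent support. In it Npc2g (-1.39, adjusted p 0.00853) and Npc2h (-1.38, adjusted p 0.0130) were still lower under HSD. Npc1a (-0.59, adjusted p 0.0657) and Npc2b (-0.78, adjusted p 0.0726) were then not called, and Npc2d (-1.70, adjusted p 0.00743) and Npc2f (-1.03, adjusted p 0.0438) were, which made 4 of 9 members where 20.2% of genes were called. Against CD, the HFD daughters of day 10 had no member called, while 0.0483% of genes were. In that comparison 4 members and 2950 genes (28.5%) had an unadjusted p under 0.05, and DESeq2 called 2 members and 883 genes (8.46%). Without the same libraries 15.9% of genes were called, and 4 of 9 members were higher under HFD than under CD, namely Npc2g (1.10, adjusted p 0.00450), Npc2h (1.52, adjusted p 0.00357), Npc2d (0.84, adjusted p 0.0139) and Npc2f (0.93, adjusted p 0.0338). HSD against CD at day 10 called 0 members and 0% of genes.

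Other list genes of the HSD against HFD comparison moved in both directions. Of 16 sterol and lipoprotein genes 5 fell and 3 rose, and santa-maria, Snmp1 and emp, all of the CD36 type, fell by 1.61, 1.64 and 1.70 on the log2 scale (adjusted p 0.00106, 0.00108 and 0.00168). Of 15 lysosome genes 8 fell and 2 rose, with the protease genes CtsB at -0.93 (adjusted p 0.00108) and cathD at -0.53 (adjusted p 0.00229). None of 13 midgut genes was called.

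No member was called by diet in the other strata. In mothers, who ate the diets themselves, 0 of 9 members and 0% of genes were called in each of the 3 comparisons. Npc1b had 49, 6.79, 16.8, 8.52 and 23.4 CPM in HFD mothers and 10.7, 12.3, 51.7, 7.28 and 8.31 CPM in HSD mothers, against 17.5, 10.3, 6.48, 15.9 and 15.2 CPM in CD mothers. Npc2e had 71, 22.8, 58.1, 24.7 and 40.2 CPM in HFD mothers and 29, 33.1, 86.7, 13.5 and 25.1 CPM in HSD mothers, against 37.5, 21.2, 4.26, 8.45 and 27.7 CPM in CD mothers. All 3 groups overlapped for both genes, and the log2 fold change of HFD against CD was 0.68 ± 0.59 for Npc1b and 1.14 ± 0.56 for Npc2e (adjusted p 0.999 for both). Set beside the mothers, the group means of Npc2e in day 50 daughters were 7.80 CPM under HFD, 2.58 under HSD and 146 under CD, against 43.4, 37.5 and 19.8 CPM in mothers on the same diets. Generation, age and diet history differ together there, and no test was made.

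In day 0 daughters, day 0 sons and day 10 sons 0% of genes were called in each of the 9 comparisons, and 0% in the other 2 of day 50 sons. Over the 18 diet comparisons without a called member there were 22 members at an unadjusted p under 0.05 among 162 tests, against 9.75% of tests of any gene. DESeq2 called 6 members there, and 1.93% of tests of any gene. Over the 23 comparisons of any kind in which edgeR called no gene, 117 to 3627 genes had an unadjusted p under 0.05 and DESeq2 called 0 to 2403. In several of these groups 1 or a few libraries held the high values. In day 10 sons under HSD, m27 had 117 CPM of Npc2e where the other 4 had 0.771, 2.32, 1.45 and 1.69 CPM. In day 0 daughters under HSD, f13 and f15 had 23.3 and 30.7 CPM of Npc1b and midgut sums of 10612 and 11843 CPM, while the other 3 had 0.221 to 1.27 CPM and midgut sums of 588 to 862 CPM.

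Ageing was followed in each diet line with day 10 against day 0 and day 50 against day 10. Of 110 tests of a member, 31 passed, 16 higher and 15 lower at the later day. Over the same 12 comparisons 0% to 73.3% of all genes tested were called, and calls of any gene split into 19005 higher and 20895 lower. The share of all genes in each comparison stands beside the members' count below. The total of 31 is not read as a result about the members. In CD daughters 6 of 9 members changed in the step to day 10, where 71.3% of genes did, and 6 of 9 in the step to day 50, where 46.2% did. Npc2e climbed at each step in CD daughters, with ranges of 0.525 to 13.6 CPM at day 0, 9.68 to 19.4 CPM at day 10 and 110 to 170 CPM at day 50. Its log2 fold change was 1.88 ± 0.59 for the first step (adjusted p 0.0114) and 2.87 ± 0.50 for the second (adjusted p 3.99e-04). Npc1b had 0.420 to 11.4 CPM at day 0, 19.5 to 46.2 CPM at day 10 and 51.1 to 119 CPM at day 50. Its first step passed (3.13 ± 0.63, adjusted p 5.98e-04) and its second missed the threshold (1.09 ± 0.49, adjusted p 0.0792). In the fit over all progeny groups the first steps of Npc2e (adjusted p 0.127) and Npc2d (adjusted p 0.0553) were not called.

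Npc2d and Npc2f peaked at day 10 in CD daughters. Npc2d had 1.15 to 7.76 CPM at day 0, 16.7 to 27 CPM at day 10 and 1.71 to 4.61 CPM at day 50 (2.29 ± 0.38, adjusted p 1.69e-04, then -2.96 ± 0.36, adjusted p 2.18e-05). Npc2f had 1.54 to 3.21, 14 to 18.9 and 11.3 to 16.3 CPM at the same days (2.46 ± 0.20, adjusted p 7.28e-06, then -0.49 ± 0.17, adjusted p 0.0276). The second call of Npc2f was lost without f18, f19, f32 or f35 (adjusted p 0.0518 to 0.0798) and in the fit over all progeny groups (-0.23, adjusted p 0.844). Npc2d and Npc2e, whose genes are 1007 bases apart, thus took opposite directions in the second step.

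Npc1a and Npc2b declined at both steps in CD daughters. Npc1a had 98.3 to 118, 59.6 to 99.3 and 52.9 to 67.1 CPM at days 0, 10 and 50, with log2 fold changes of -0.62 ± 0.14 (adjusted p 0.00135) and -0.64 ± 0.13 (adjusted p 0.00164). Npc2b had 82 to 144, 23.8 to 79.9 and 13.9 to 25.6 CPM, with log2 fold changes of -1.74 ± 0.33 (adjusted p 4.35e-04) and -1.22 ± 0.32 (adjusted p 0.00792). Flight muscle transcripts fell over the same days, with sums of 56402 to 81983, 9738 to 34184 and 828 to 1161 CPM. Their part in the fall of Npc1a and Npc2b was not tested.

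In HFD daughters 0 members and 0% of genes were called between day 10 and day 0. At an unadjusted p under 0.05 there were 4 members and 1053 genes (9.98%), and by DESeq2 0 members and 78 genes (0.69%). Without the libraries placed against their day 3 of 9 members and 13% of genes were called. Between day 10 and day 50, 5 of 9 members fell, where 63.1% of genes changed: Npc1a by 1.13, Npc2b by 1.67, Npc2d by 4.44, Npc2f by 2.49 and Npc2h by 0.80 on the log2 scale (adjusted p 6.86e-04, 0.00800, 0.0167, 0.0227 and 0.0374). The Npc2h call was lost without any 1 of 8 libraries (f7, f22, f23, f24, f25, f37, f39 or f40, adjusted p 0.0504 to 0.123), that of Npc2f without f25 or f40 (adjusted p 0.0511 to 0.0544) and that of Npc2b without the libraries placed against their day (adjusted p 0.0839). In the fit over all progeny groups Npc2h was not called (adjusted p 0.167). Npc2e, which rose in this step in CD daughters, had 2.78 to 13.5 CPM at day 50 in HFD daughters, against 0.177 to 9.10 CPM at day 10 (0.37 ± 0.94, adjusted p 0.736).

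In HSD daughters Npc1a (-1.08), Npc2b (-2.75), Npc2g (-1.03) and Npc2h (-0.95) were lower at day 10 than at day 0, 4 of 9 members where 73.3% of genes were called (adjusted p 4.80e-04, 6.74e-04, 0.00652 and 0.00144). Without the libraries placed against their day Npc2g (adjusted p 0.156) and Npc2h (adjusted p 0.0572) were not called. The second step called 0 members and 0.901% of genes. At an unadjusted p under 0.05 it had 4 members and 1339 genes (12.8%), and by DESeq2 1 member and 520 genes (4.68%). Npc2e had 1.15 to 4.07 CPM at day 50 in that line, against 3.93 to 23.5 CPM at day 10 (-2.23 ± 0.94, adjusted p 0.326).

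The difference between lines in the second step, a comparison added after the data were seen, was tested as an interaction. For Npc2e in daughters the HSD line minus the CD line gave -5.10 ± 1.26 (adjusted p 0.0511) and the HFD line minus the CD line -2.45 ± 1.15 (adjusted p 0.225). For Npc2h in daughters the HFD line minus the CD line gave -1.34 ± 0.41 (adjusted p 0.0579). Of 38 such tests 0 passed and 8 had an unadjusted p under 0.05 (16.1% of all tests of any gene had). DESeq2 called 2 members (1.96% of all tests of any gene). By edgeR 3.65% (HFD) and 0.483% (HSD) of genes passed in daughters and 0% (HFD) and 0.00766% (HSD) in sons.

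In CD sons the first step raised 5 of 9 members, where 27.9% of genes were called, and the second raised 3 of 9, where 65.9% were. Npc2g had 23.1 to 77 CPM at day 0, 137 to 183 CPM at day 10 and 117 to 262 CPM at day 50, with a first step of 1.59 ± 0.29 (adjusted p 7.57e-04). Npc2h had 27.9 to 64.9, 132 to 155 and 49 to 157 CPM, with a first step of 1.56 ± 0.27 (adjusted p 4.67e-04). Both adjacent genes rose in this step in HFD sons too, by 1.62 ± 0.24 and 1.58 ± 0.22 on the log2 scale (adjusted p 0.00177 and 0.00111). They were the 2 called members of 9 there, where 8.29% of genes were called (3 of 9 members and 34.3% of genes without m8). In HSD sons their changes were 1.69 ± 0.44 (adjusted p 0.0765) and 1.35 ± 0.35 (adjusted p 0.0776), and 0 members and 0.442% of genes passed. At an unadjusted p under 0.05 HSD sons had 5 members and 2506 genes (19.8%), and by DESeq2 3 members and 963 genes (7.38%). Without m45, a day 50 library in neither group of this step, 4 of 10 members and 11.9% of genes were called.

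Npc2e rose in both steps in CD sons, with 0.382 to 0.960 CPM at day 0, 0.585 to 7.40 CPM at day 10 and 29.8 to 149 CPM at day 50. Its log2 fold changes were 2.38 ± 0.67 (adjusted p 0.0148) and 4.48 ± 0.57 (adjusted p 1.36e-05). The first call was lost without m20 (adjusted p 0.0521) and without the 5 libraries m1, m3, m4, m8 and f12, which carry transcripts of the other sex (adjusted p 0.205). Npc2a rose by 0.39 and 0.70 (adjusted p 0.00991 and 4.10e-05), Npc2b by 0.97 in the second step (adjusted p 6.15e-05) and Npc2f by 1.44 in the first (adjusted p 0.0447). Without those 5 libraries the first step of Npc2a (adjusted p 0.0702) and Npc2f (adjusted p 0.335) was not called, which left 2 of 9 members where 19.1% of genes were called, and the fit over all progeny groups called none of these 3 either (Npc2e 0.160, Npc2a 0.117 and Npc2f 0.196 as adjusted p). The Npc2f call was also lost without any 1 of 9 libraries (m2, m3, m4, m17, m18, m20, m31, m32 or m34, adjusted p 0.0516 to 0.171). In HFD sons Npc2e stayed at 0.269 to 4.30, 0.794 to 4.65 and 0.387 to 2.39 CPM at days 0, 10 and 50. Between day 10 and day 50, HFD sons had 0 members and 1.59% of genes called. At an unadjusted p under 0.05 they had 1 member and 1476 genes (11.6%), and by DESeq2 0 members and 642 genes (5.13%). With m8, a day 0 library in neither group of that step, left out of the fit, 2 of 9 members and 43.6% of genes were called in it. HSD sons had 0 members and 0% of genes called in that step. At an unadjusted p under 0.05 they had 3 members and 3063 genes (24.2%), and by DESeq2 0 members and 670 genes (5.14%).

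Npc2b therefore ran in opposite directions in the CD line between day 10 and day 50, up in sons and down in daughters, a difference that was not itself tested. The sexes were compared at each day in each diet line, and 29 of 79 tests of a member passed, 27 with the higher level in sons and 2 with the higher level in daughters. Over the same comparisons 39009 of 69949 calls of any gene were higher in sons. Between 7.44% and 88.0% of all genes tested were called in each, so the total of 29 is not read as a result about the members. More than 50% of all genes were called in 7 of the 9 comparisons, and the median log2 fold change over all genes was 0.52 and 0.53 at day 50 under HFD and HSD. Scaling by median-of-ratios size factors moved the median of all genes by up to 0.12 and kept the direction and side of the threshold of each named call.

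Npc2h and Npc2g stood higher in sons at days 10 and 50. Group means of Npc2h were also higher in sons at day 0, at 47.7 against 30.0 CPM under CD. They were 54.4 against 27.4 CPM under HFD and 54.8 against 38.6 CPM under HSD. A change of the sex difference with day was not tested. At day 10 under CD, Npc2h had 139, 148, 155, 132 and 133 CPM in sons, against 25.6, 20.6, 24.5, 29.5 and 17.2 CPM in daughters (2.76 ± 0.15, adjusted p 6.06e-09). Npc2g had 183, 172, 164, 147 and 137 CPM in sons, against 53.7, 49, 46.2, 54.8 and 44.2 CPM in daughters (1.88 ± 0.11, adjusted p 1.83e-08). For both genes the lowest son was far above the highest daughter, and the sexes did not overlap for 73.3% of all genes tested. Sons were higher at day 10 under HFD too (1.84 and 1.16 for Npc2h and Npc2g, adjusted p 1.08e-04 and 0.00328) and under HSD (2.87 and 2.40, adjusted p 3.15e-07 and 5.51e-06). The closest pair was the HFD son with 164 CPM of Npc2g and the HFD daughter f22 with 141 CPM. At day 50 Npc2h was higher in sons in all 3 lines, by 2.02 under HFD, 1.66 under HSD and 1.46 under CD (adjusted p 3.06e-05, 0.00283 and 9.45e-04). Npc2g was higher by 1.49 under HFD and 1.38 under CD (adjusted p 0.00117 and 4.58e-05), and by 0.97 under HSD, where it missed the threshold (adjusted p 0.0839).

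Npc2b and Npc1a were higher in sons in all 3 lines at day 50. Npc2b had 161, 139 and 145 CPM in HFD sons, against 35, 31.9, 25.7, 25.8 and 11.9 CPM in HFD daughters. In the CD line it had 132, 203, 146, 166 and 213 CPM in sons, against 20.8, 20.2, 25.6, 13.9 and 21 CPM in daughters. In both lines no daughter reached the lowest son, and the sexes did not overlap for 85.1% of all genes under HFD and 80.6% under CD. The log2 fold change of Npc2b was 2.70 ± 0.28 under HFD, 2.68 ± 0.31 under HSD and 3.15 ± 0.18 under CD (adjusted p 1.00e-05, 3.03e-05 and 2.64e-08). That of Npc1a was 1.06, 1.19 and 1.11 in the same lines (adjusted p 2.19e-04, 2.77e-05 and 3.82e-07). At day 10 Npc1a was higher in sons by 0.36 under HFD, 1.01 under HSD and 0.63 under CD (adjusted p 0.0150, 1.40e-04 and 0.00167), and Npc2b by 2.39 under HSD and 1.29 under CD (adjusted p 8.70e-05 and 0.00235) with 0.48 under HFD (adjusted p 0.275).

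**Figure D5:**
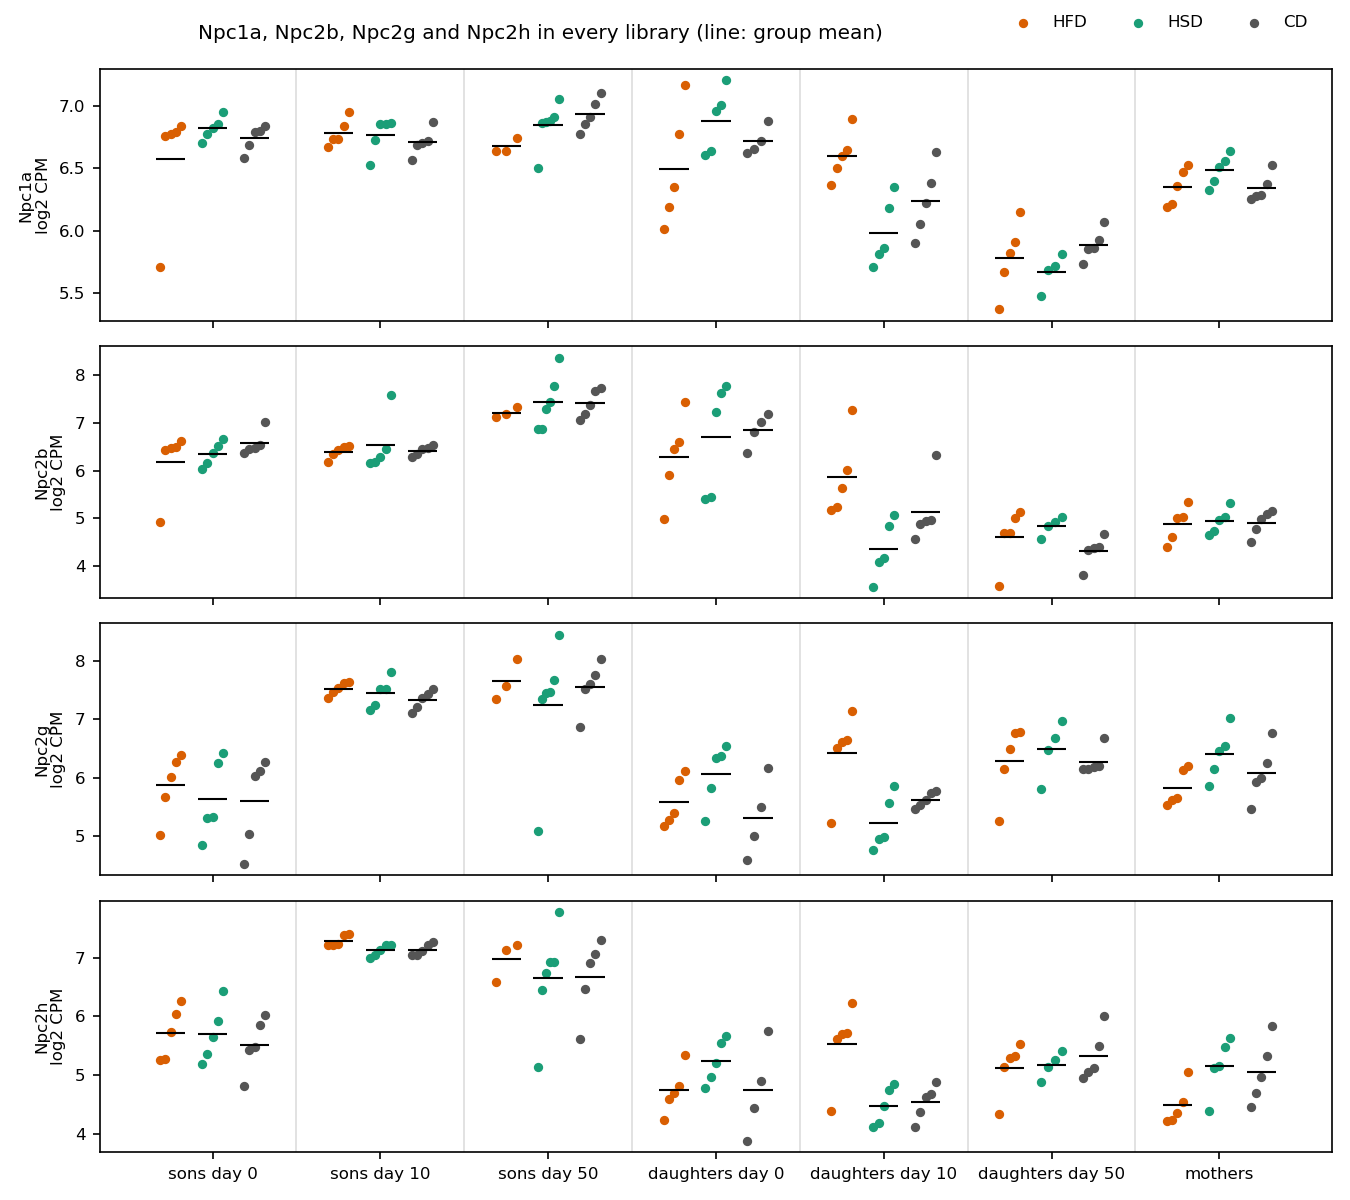
Level of Npc1a, Npc2b, Npc2g and Npc2h in every library as log2 CPM (prior count 1), by sex, day and mother's diet, with the line at the group mean. Npc2g and Npc2h sit higher in sons than in daughters at days 10 and 50, Npc1a has its 3 lowest group means in daughters of day 50, and Npc2b its lowest in CD daughters of that day.

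Npc2e passed in both directions, at different days and in different lines. It was lower in sons at day 10 under CD, with 0.585, 1.49, 4.83, 2.44 and 7.40 CPM against 9.68, 18.5, 19.4, 19.2 and 16.7 CPM in daughters (-2.12 ± 0.48, adjusted p 0.00138). It was lower in sons at day 50 under HFD, with 2.11, 0.387 and 2.39 CPM against 13.5, 4.41, 7.19, 2.78 and 11.1 CPM in daughters (-2.09 ± 0.68, adjusted p 0.0161). It was higher in sons at day 50 under HSD (4.90 ± 1.40, adjusted p 0.00796), where 4 of 6 sons had 77 to 173 CPM, the sons m40 and m45 had 2.64 and 0.290 CPM and the daughters 1.15 to 4.07 CPM. At day 50 under CD the difference missed the threshold (-0.83 ± 0.37, adjusted p 0.0511). Npc1b was not called between the sexes in any of the 9 comparisons. Npc2f was higher in HFD sons of day 50 (23.7, 17.1 and 17.9 CPM against 9.64, 3.01, 2.40, 3.55 and 1.21 CPM in daughters, 2.49 ± 0.54, adjusted p 0.00161), and Npc2a in CD sons of day 50 (0.29 ± 0.09, adjusted p 0.00892).

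Read against all genes, these counts are not high. At day 10, 3 of 9 members were called under HFD, where 66.9% of genes were, 4 of 9 under HSD, where 80.8% were, and 5 of 9 under CD, where 82.8% were. At day 50 the counts were 6 of 9 under HFD with 87.2% of genes, 4 of 9 under HSD with 79.9%, and 5 of 9 under CD with 88.0%. Without the libraries placed against their day 8 of 9 members were called at day 10 under HFD and 8 of 9 at day 50 under HSD, where 82.7% of genes were called in each. In the fit over all progeny groups Npc1a at day 10 under HFD (adjusted p 0.292), Npc2a at day 50 under CD (0.191) and Npc2e at day 50 under HFD (0.0841) were not called. At day 0 they were 1 of 9 under HFD with 7.44% (Npc2h, 1.21 ± 0.30, adjusted p 0.0351), 0 of 8 under HSD with 33.5%, and 1 of 8 under CD with 52.6% (Npc1a, 0.22 ± 0.08, adjusted p 0.0306). The HSD count of 0 stood beside 1 member and 6052 genes (48.6%) at an unadjusted p under 0.05. DESeq2, which tested all 10 members, called 2 of them and 5753 genes (40.9%). Without m8, which goes against its sex label, 1 of 9 members and 52.8% of genes were called at day 0 under HFD. Without f12, which does so too, 2 of 9 members and 50.1% of genes were called at day 0 under HSD. The day 0 call of Npc2h was lost without m6, m7 or m10 (adjusted p 0.084 to 0.0992) and that of Npc1a without m1, m2, m5, f3 or f5 (adjusted p 0.0628 to 0.0833) and in the fit over all progeny groups (0.02, adjusted p 0.925).

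Across the 18 progeny groups the members fell into patterns that the position of the genes matched only in part. Correlations of group mean log2 CPM are given as a description, since groups share sex, day and depth. Npc1a and Npc2b had r = 0.918, Npc2g and Npc2h, which are 215 bases apart, r = 0.908, and Npc1b and Npc2e r = 0.840. The neighbours Npc2d and Npc2e had r = -0.19. Among genes outside the family with a mean of at least 1 CPM, the most alike was the digestive trypsin gene lambdaTry for Npc1b (r = 0.934), Nazo for Npc2e (r = 0.935), Men, which encodes malic enzyme, for Npc2h (r = 0.977) and sPLA2, a secreted phospholipase, for Npc2g (r = 0.976). For Npc2b it was grnd (r = 0.993), which encodes a TNF receptor, for Npc1a the adenylate cyclase gene Ac76E (r = 0.984), and for Npc2d mag (r = 0.867), which encodes the gut lipase Magro. For Npc2a it was cindr (r = 0.966) and for Npc2f CG34330 (r = 0.919).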

How the data were processed

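RNA-seq of whole flies was used. Per the labels, groups follow generation, mother's diet, sex and day. The authors deposited raw counts per gene in 1 table of mothers and 1 of progeny. Per the submitters' processing notes, kallisto (version not given), R 4.2.0, DESeq2 1.36.0 and build BDGP6 were used, with no role given for each. Kallisto shares reads among similar transcripts, so counts of near-identical paralogs would be uncertain. Symbols and positions came from the Ensembl annotation BDGP6.54, which may differ from the authors' build. No sequence is printed.

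The members and lists were chosen with earlier results of these data known. All 10 members are named, and list genes only where a member passed in the same comparison (up to 4 by adjusted p). The most alike gene by r is named for each member with a mean of at least 1 CPM, which left out Npc2c.

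Here R 4.3.3, edgeR 4.0.16 and limma 3.58.1 were used. Genes passed filterByExpr (minimum count 10, minimum total 15), libraries were scaled by TMM, and the quasi-likelihood F test ran over all genes, with p-values adjusted by the method of Benjamini and Hochberg and a threshold of 0.05. A single fit held 3 diets of 1 stratum, 3 days of 1 sex and diet, or both sexes of 1 day and diet, and interactions all groups concerned. Printed CPM are counts scaled to the plain library total, and log2 CPM used a prior count of 1. Alternatives were DESeq2 1.42.0, median-of-ratios size factors, no filter, 1 fit of all progeny, leaving out libraries, and library number as a block. The fit was tested on simulated counts. No pair of libraries of the same group was a duplicate by a chi-square test of counts (200 pairs, smallest ratio to its degrees of freedom 5.74). Pairs across groups were not tested. The precision of a level follows its counts, of 6332907 to 19469296 per library.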

Additional observations from a re-analysis of the deposited data

Results flagged for a closer look

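Within groups of 4 to 10 libraries, 18 of 196 member and group combinations had a library whose gap to its nearest neighbour took an unusually large share of the group's range by Dixon's criterion, which chance meets in about 1 of 20 groups. No cause was tested for any of them.

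Several belong to libraries that go against their labels. Library m27, a day 10 son under HSD, was high for Npc2e (117 CPM where the others had 0.772 to 2.32 CPM), Npc2b (191 CPM, others 71.4 to 88 CPM) and Npc2a (134 CPM, others 64.6 to 74.4 CPM). Library m8, labelled a day 0 son under HFD, was low for Npc1a (52.1 CPM, others 108 to 114 CPM) and Npc2b (30.2 CPM, others 86.3 to 98.1 CPM). Library m45, a day 50 son under HSD, was low for Npc2g (34.2 CPM, others 163 to 347 CPM) and Npc2f (0.387 CPM, others 13.5 to 20.4 CPM). Library f19, a day 10 daughter under CD, had 79.9 CPM of Npc2b where the others had 23.8 to 31 CPM.

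The rest were single values. In sons, Npc1a was 90.5 CPM in m44 (day 50, HSD) with the others at 117 to 133 CPM, Npc2b was 130 CPM in m3 (day 0, CD) with the others at 81.9 to 92.9 CPM, and Npc2f was 1.62 CPM in m26 (day 10, HSD) with the others at 16.5 to 25.5 CPM. In daughters of day 50, Npc2b was 11.9 CPM in f40 (HFD) with the others at 25.7 to 35 CPM, Npc2f was 9.67 CPM in f44 (HSD) with the others at 2.17 to 2.79 CPM, and Npc2g was 103 CPM in f32 (CD) with the others at 70.8 to 73.9 CPM. In day 10 daughters under CD, f16 had 9.68 CPM of Npc2e where the others had 16.7 to 19.4 CPM. In mothers on HSD, s13 had 51.7 CPM of Npc1b where the others had 7.28 to 12.3 CPM. Npc2c was counted in s1 (mother, CD, 0.207 CPM) and in f43 (day 50 daughter, HSD, 0.423 CPM), with a count of 0 in the others of each group.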

How the results depend on the processing

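The 69 named calls kept their direction under each alternative run. All 69 also stayed past the threshold with DESeq2, without the low-count filter and with median-of-ratios size factors. The fit over all progeny lost 13, and leaving out 1 library lost a call in 41 refits and kept it in 811. The cause of the changes below was not tested.

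Counts of called members changed as follows. A percentage beside a count is the share of all genes called in the same refit. DESeq2, the fit over all progeny and the refit without the filter tested all 10 members, Npc2c included. The main fits mostly tested 8 or 9, so these counts are not over the same members. DESeq2 called 2 for HFD against CD in day 10 daughters (8.46%) and in day 50 sons (18.3%), with 0 by edgeR. It called 1 for HSD against HFD in day 50 daughters (3.28%) and sons (0.108%), and for HSD daughters between days 50 and 10 (4.68%). It also called 1 for the sex difference of the HFD effect at day 10 (3.73%) and of the HSD effect at day 50 (1.34%). The HFD (5.87%) and HSD (2.26%) line differences in daughters had 1 each, with 0 by edgeR in all of these. DESeq2 called 3 for HSD sons between days 10 and 0 (7.38%), with 0 by edgeR. Between the sexes it called 4 (47.8%), 2 (24.7%) and 2 (40.9%) at day 0 under CD, HFD and HSD, and 8 (75.7%) at day 50 under HSD. In these 4 comparisons edgeR called 1, 1, 0 and 4. Npc2c, which edgeR did not test there, was among the DESeq2 calls at day 0 under CD and HFD. It was higher in sons (adjusted p 0.0212 and 0.0291), at levels near 0. With 1 fit of all progeny, day 0 daughters had 1 (HSD against CD, 12.1%) and 2 (HSD against HFD, 18.7%). Day 10 daughters (1.4%) and day 50 sons (13.2%) had 1 each for HFD against CD, and day 50 daughters 1 for HSD against CD (2.43%). In that fit HSD daughters had 1 at the later step (2.49%), CD sons 2 at the earlier (15.2%), and HSD sons 4 (12.3%) and 1 (12.5%). The sexes had 2 in each line at day 0 (46.9%, 37.6% and 61.9% under CD, HFD and HSD) and 7 at day 50 under HSD (85.2%). Npc2c was 1 of the 2 in each line at day 0 (adjusted p 0.0225, 0.00273 and 0.0164). Median-of-ratios scaling gave 2 (day 0, CD, 50.3%), 1 (day 0, HSD, 32.4%) and 7 (day 50, HSD, 79.9%) between the sexes. No filter gave 3 (day 0, CD, 48%), with Npc2c among them (adjusted p 0.0125).

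Without the libraries placed against their day the counts were 4 (HFD against CD, day 10 daughters, 15.9%) and 2 (the same, day 50 sons, 18.7%). HFD daughters had 3 at the earlier step (13%), HSD daughters 1 at the later (5.29%), and HSD sons 4 (11.9%) and 2 (23.3%). The sexes had 5 at day 0 under HSD (38.1%), 8 at day 10 under HFD (82.7%) and 8 at day 50 under HSD (82.7%). The sex difference had 2 for the HFD effect at day 10 (6.25%) and 1 for the HSD effect at day 50 (0.709%). The line differences had 4 in HFD daughters (8.88%) and 1 in HSD daughters (0.33%). Without m8 and f12 the counts were 2 (HFD sons, later step, 43.6%), 2 (sexes, day 0, HSD, 50.1%) and 1 (HSD line difference, daughters, 0.549%). Without m1, m3, m4, m8 and f12, an alternative added after seeing the data, they were 2 for CD sons at the earlier step (19.1%) and 2 for the sexes at day 0 under CD (50.2%).

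Leaving out 1 library gave 0 to 2 for HFD against CD in day 10 daughters and in day 50 sons, 2 to 4 for it in day 50 daughters, 1 to 4 for HSD against CD there, and 4 to 5 for HSD against HFD in day 10 daughters. Over the earlier and later step it gave 6 to 7 and 5 to 8 in CD daughters, 3 to 6 for the later step of HFD daughters, 3 to 5 for both steps of CD sons, 2 to 3 and 0 to 2 in HFD sons, and 0 to 4 for both in HSD sons. Between the sexes it gave 0 to 2, 0 to 1 and 0 to 2 at day 0 (CD, HFD, HSD), 5 to 8, 3 to 6 and 4 to 5 at day 10, and 5 to 7, 6 to 8 and 4 to 8 at day 50. It gave 0 to 1 for the sex differences of the HFD effect at day 10 and of the HSD effect at day 50 and for both line differences in daughters. The share of all genes called in each of these refits is not given here, so these counts have no background beside them.

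Library numbers are shared between the sexes, and nothing in the labels says that they pair. Correlations of libraries with the same number were mixed (41 pairs, from -0.356 to 0.395, 11 over 0.1) and cannot decide it. With the number as a replicate block, the sexes had 0 (47.5%), 0 (0.893%) and 1 (35.8%) members at day 0 under CD, HFD and HSD. They had 8 (79.5%) at day 50 under HSD, and the other counts stayed within 1.5 times. The all-progeny fit did not include mothers. At this depth Npc2c was too low to compare in most comparisons.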
